A study of Mus musculus with 6 samples.

Results

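The miRNAs described here are miR-7, miR-9, miR-124, miR-128, miR-137, miR-153 and miR-219, a group best known from neurons and glia. They were picked by name alone, as every assay on cards A and B of the TaqMan rodent set that carries one of these numbers, without the assays marked # for the opposite arm of a hairpin. The rule found 10 of the 750 miRNA assays, all on card A, of which 8 are named for mouse and 2 for rat. The embryos were mouse blastocysts in pools of 300, of which 3 pools were vitrified (V1 to V3) and 3 were left fresh (F1 to F3). The embryos came from mated, superovulated Kunming white mice 5 weeks old, and the labels of all 6 pools give culture in CZB medium. The vitrified embryos were held in pretreatment solution with 10% ethylene glycol and 10% DMSO for 30 seconds and in EDFS30 for 25 seconds, frozen in liquid nitrogen in open-pulled straws and thawed in sucrose. The fresh embryos had none of these steps, and whether they spent the same time in culture is not given in the sources used here. The study judged survival of vitrified embryos many hours after warming. Whether only survivors were pooled, and when their RNA was taken, is not stated.

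A miRNA is cut from a hairpin transcript, and its seed, bases 2 to 8, pairs with sites in target mRNAs and lowers their output. In the brain, miR-124 is the most abundant miRNA of neurons and represses genes of non-neuronal cells, while miR-9 acts in neural progenitors and in the step to neurons. miR-128 restrains neuronal excitability, miR-137 acts in neural stem cells and synapses, miR-153 targets genes of vesicle release, miR-219 drives oligodendrocyte maturation, and miR-7 is made in neurons and endocrine cells, where it binds the circular RNA Cdr1as. A blastocyst has no neural cells, only an inner cell mass and an outer trophectoderm, so these assays ask how much of a neural set is found in the embryo before implantation and whether vitrified and fresh embryos differ in it.

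Mature sequences were found in RefSeq (GRCm38.p6) for 7 of the 8 mouse assays and are shown with the seed in capitals, because the seed defines which of these assays belong to 1 family. An assay name without an arm was taken as the guide arm of the current name.
miR-7a-5p: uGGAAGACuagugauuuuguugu
miR-7b-5p: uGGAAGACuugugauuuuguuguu
miR-9-5p: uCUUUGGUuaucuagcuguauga
miR-128-3p: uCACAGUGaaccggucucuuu
miR-137-3p: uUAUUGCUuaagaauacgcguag
miR-153-3p: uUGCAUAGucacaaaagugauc
miR-219a-5p: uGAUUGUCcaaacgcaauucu
These 7 sequences have 6 distinct seeds, and only miR-7a-5p and miR-7b-5p share theirs. Counted from the 5′ end, the change from miR-7a-5p to miR-7b-5p is A10U, and miR-7b-5p has 24 bases against 23.

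Several of these miRNAs come from more than 1 hairpin, which a mature assay cannot tell apart. miR-7a-5p lies at chr13:58392841-58392863 on the minus strand, within the span of Hnrnpk, an RNA-binding protein gene that most cells use, and at chr7:78888295-78888317 on the plus strand. miR-7b-5p has 1 hairpin, at chr17:56243017-56243040 (plus strand). miR-128-3p lies at chr1:128202404-128202424 on the plus strand within R3hdm1 and at chr9:112118644-112118664 on the minus strand within Arpp21. miR-9-5p has 3 hairpins, at chr3:88215613-88215635, chr7:79505279-79505301 and chr13:83738821-83738843, all on the plus strand and all within lncRNA genes. miR-137-3p lies at chr3:118433901-118433923 (plus strand), and miR-153-3p at chr12:117250860-117250881 (plus strand) within Ptprn2, a gene of secretory vesicles. miR-219a-5p lies at chr2:29845689-29845709 within Cercam and at chr17:34025052-34025072, both on the minus strand. The table used gives gene spans and not exons, so exonic and intronic positions are not stated.

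In this assay a miRNA is read by its threshold cycle (Ct), the number of PCR cycles its well needed to reach the fluorescence cutoff. A later Ct means less template, about a factor of 2 for each cycle, and a well that had not reached it by 40 cycles is called undetermined. V1 and F1 stood apart from the other pools. A Ct was obtained for 37.3% of the card A miRNA assays in V1 and 23.5% in F1. In V2, V3, F2 and F3 it was 56.5% to 63.7%. The mean Ct of the 4 U6 wells of card A was between 16.59 and 17.82 in all 6 pools. The other endogenous controls of card A came late in V1 and F1 or gave no Ct. For snoRNA202 the values were 25.90 and 27.47, against 17.79 to 18.22 in the other 4 pools. For snoRNA135 they were 30.59 and 35.46, against 21.70 to 23.11. U87 gave a Ct of 34.62 in V1, against 21.94 to 22.94 in those 4 pools, and none in F1. Y1 gave none in V1 or F1. Whether the pools held equal amounts of small RNA was not tested. Of 21 assays for miRNAs of the pluripotent embryo (miR-290 to miR-295, miR-302 and miR-367), 0 were determined in V1 and 1 in F1, against 8 to 12 in the other 4 pools. V1 and F1 thus lacked nearly all markers of the labelled blastocysts. In each of them, 4 of 5 white cell, 5 of 7 ciliated and oviduct epithelium and 2 of 7 muscle assays were determined. Red cell assays were 2 of 3 in V1 and 1 of 3 in F1, and the liver assay was undetermined in both. The white cell miR-142-3p was late there, at 32.27 and 31.91 against 23.00 to 24.82 in the other 4 pools. Another white cell assay, miR-150, was at 25.05 and 23.32, near its 22.02 to 24.17 elsewhere. The epithelial miR-34b-3p, at 22.98 and 24.08, was near its 23.81 to 25.97 elsewhere. The epithelial miR-34c was late, at 29.77 and 34.62 against 26.82 to 27.33. Neither list thus moved as a whole. Over the other 4 pools, 5 of 5 white cell, 2 to 3 of 3 red cell, 5 of 7 muscle, 5 to 6 of 7 epithelium and 0 to 1 of 1 liver assays were determined, and the part of such cells in the values below was not tested. In pooled embryos, fewer cells holding a miRNA and less of it per cell cannot be told apart.

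Of the 10 neural assays, 7 were determined in at least 1 pool, a share of 70% against 71.2% of the 375 card A assays. The 7 were mmu-miR-7a, mmu-miR-7b, mmu-miR-9, mmu-miR-124, mmu-miR-128a, mmu-miR-137 and mmu-miR-219. Undetermined in every pool were miR-153 and the rat assays miR-219-1-3p and miR-219-2-3p, which read the other arm of the miR-219 hairpins. Determined in all of V2, V3, F2 and F3 were 4, namely miR-7a, miR-7b, miR-124 and miR-128a, which is 40% of the neural assays against 52.3% of card A. Of the 10, V1 and F1 had 0 determined, V2 and V3 had 5 each, F2 had 7 and F3 had 6. Vitrified pools had on average 3.33 ± 2.89 (SD, n = 3) and fresh pools 4.33 ± 3.79 (SD, n = 3), which differ by less than the SD of either group (exact permutation test, 2-sided, p = 0.6, where 3 against 3 allow no p below 0.1).

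**Figure D1:**
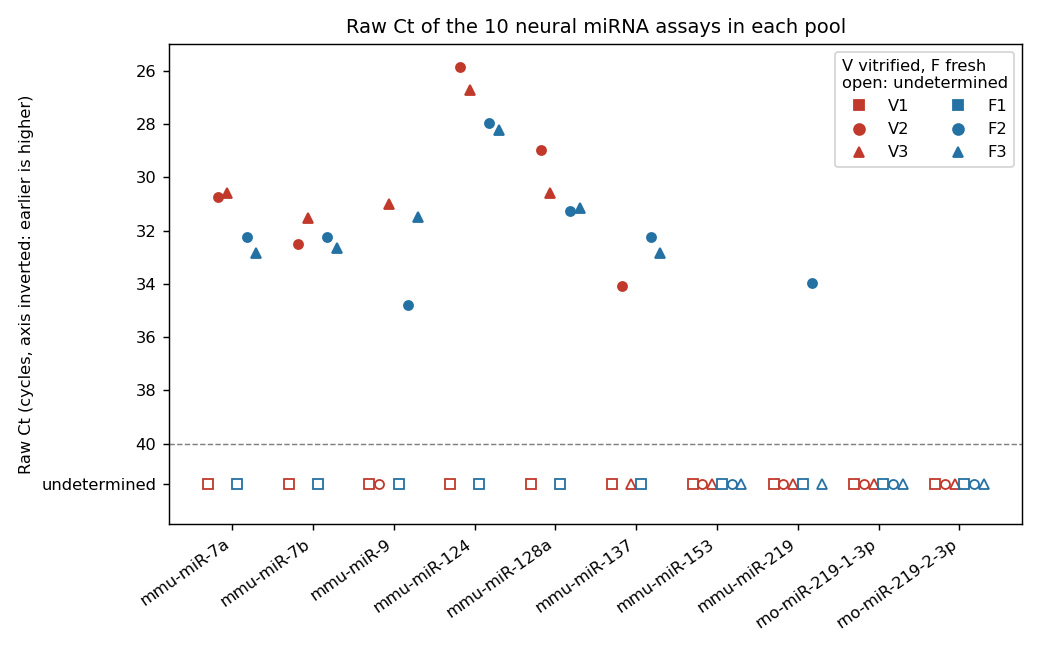
Raw Ct in cycles (inverted axis, so that earlier wells are higher) of the 10 neural miRNA assays in each of the 6 pools, with vitrified pools in red, fresh pools in blue, the pool number as the symbol and open symbols for undetermined wells. All squares, which are V1 and F1, are undetermined, and miR-124 has the earliest wells, between 25.87 and 28.22 cycles.

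All 20 wells of the neural assays in V1 and F1 were undetermined, so that the log2 fold changes given below for these assays rest on V2, V3, F2 and F3. The exceptions are the alternatives that set undetermined wells to a fixed Ct. Among the 196 card A assays determined in those 4 pools, 33.2% were undetermined in both V1 and F1, and all 4 of the neural assays were. The share rose toward later wells in the same assays, from 7.8% of the 103 with a mean Ct earlier than that of miR-124 to 61.3% of the 93 at or after it. Within the span of mean Ct that the 4 neural assays cover, 56.4% of 78 assays were undetermined in both. Within 1 cycle of the mean Ct of miR-124, it was 36.8% of 38 assays.

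**Figure D2:**
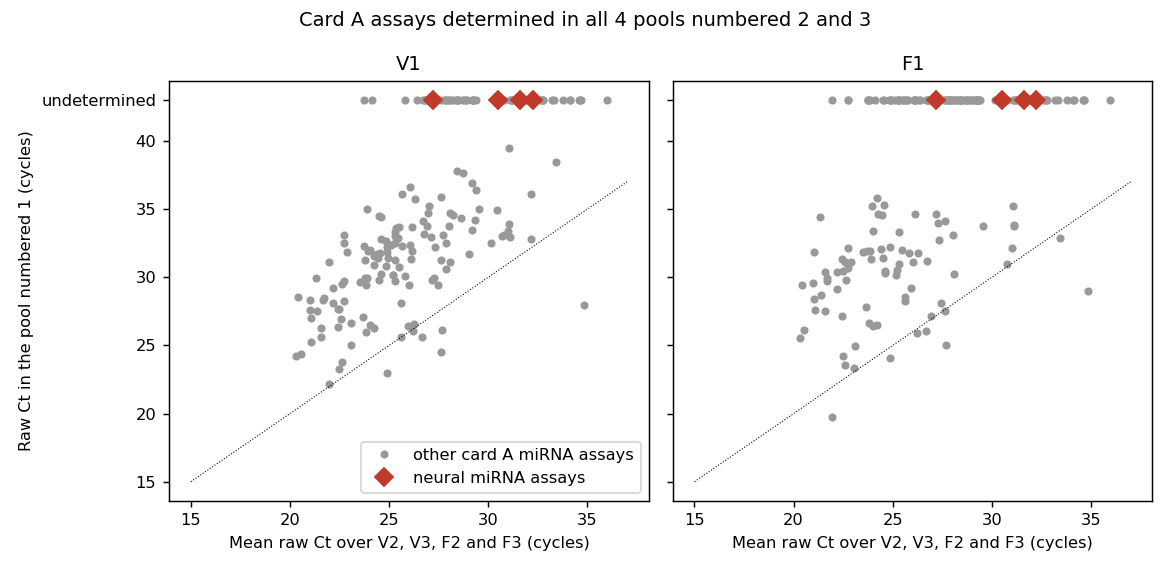
Raw Ct in V1 (left) and F1 (right) against the mean raw Ct over V2, V3, F2 and F3, both in cycles, for the 196 card A miRNA assays determined in those 4 pools, with undetermined wells on the top line and equal values on the dotted line. The 4 neural assays lie on the top line in both panels, among other assays of similar mean Ct that were undetermined or several cycles later in V1 and F1.

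mmu-miR-124 had the earliest Ct of the set. Its raw Ct was 25.87 in V2, 26.72 in V3, 27.96 in F2 and 28.22 in F3. Both vitrified wells were earlier than both fresh wells, with 1.24 cycles between the nearest. For comparison between pools, the mean Ct of U6 on the card was subtracted (ΔCt), and a difference in −ΔCt is a log2 fold change. Vitrified pools had a ΔCt of 9.26 ± 0.70 (SD, n = 2) and fresh pools one of 11.32 ± 0.08 (SD, n = 2), so that the log2 fold change was 2.06 ± 1.17 (limma standard error, adjusted p = 0.998 over all 6 pools). It was 1.24 with the other endogenous controls determined in all 6 pools as the reference, which on card A were snoRNA135 and snoRNA202. With that reference the median over all tested assays moved from −0.05 to −0.78. U87 and Y1 were not part of it. On card A, snoRNA135, snoRNA202 and U87 were earlier in V2 and V3 than in F2 and F3. Y1 was later, at 29.25 and 29.55 against 28.22 and 28.18. The mean Ct of miR-124 over the 4 pools, 27.19, was the 104th earliest among the 196 card A assays, an order that also carries the efficiency of each assay. Its opposite-arm assay on card B, miR-124#, was undetermined in all pools.

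The miR-7 assays read a pair of miRNAs that share a seed. For mmu-miR-7a the raw Ct was 30.74 in V2, 30.60 in V3, 32.26 in F2 and 32.86 in F3. The vitrified wells lay within 0.2 cycles of each other and at least 1.52 cycles before the fresh ones. Vitrified pools had a ΔCt of 13.64 ± 0.01 (SD, n = 2) and fresh pools one of 15.79 ± 0.16 (SD, n = 2), so that the log2 fold change was 2.15 ± 1.12 (limma standard error, adjusted p = 0.998), and 1.33 with the other endogenous controls. The difference was large beside the spread of these wells, but 2 pools against 2 allow no exact permutation p below 0.333, which is the value reached. For mmu-miR-7b the raw Ct was 32.51 in V2, 31.53 in V3, 32.26 in F2 and 32.67 in F3. Its raw Ct values overlapped between the groups, and after subtraction of U6 they did not, at 14.98 ± 0.59 (SD, n = 2) against 15.69 ± 0.03 (SD, n = 2). The log2 fold change of miR-7b was 0.71 ± 1.15 (limma standard error, adjusted p = 0.998). It was 1.13 without V2 and 0.29 without V3, and it was −0.11 with snoRNA135 and snoRNA202 in place of U6.

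The opposite arm of miR-7 was detected where the guide arm was not. On card B, rno-miR-7# was determined in all 6 pools, between 26.19 cycles in F3 and 30.34 in F1, and rno-miR-7a# between 27.57 in F3 and 30.20 in F1. Over all 6 pools their log2 fold changes were 0.64 (standard error 1.33) and −0.02 (standard error 1.07), with ΔCt ranges that overlapped between the groups. In the pools numbered 2 and 3, on which the guide-arm values rest, they were −0.11 (standard error 0.76) and −0.52 (standard error 0.59).

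mmu-miR-128a, the older name of miR-128, had a raw Ct of 28.99 in V2, 30.61 in V3, 31.26 in F2 and 31.15 in F3. V2 was the earliest well, and V3 was 0.54 cycles before the nearest fresh well. Vitrified pools had a ΔCt of 12.77 ± 1.24 (SD, n = 2) and fresh pools one of 14.43 ± 0.34 (SD, n = 2), so that the log2 fold change was 1.67 ± 1.28 (limma standard error, adjusted p = 0.998). V2 decided much of this value, since the log2 fold change was 0.79 without V2 and 2.54 without V3. With snoRNA135 and snoRNA202 as the reference it was 0.85.

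The remaining 3 were determined in 1 to 3 wells each. mmu-miR-9, the progenitor miRNA, was determined in V3 at 31.02, in F2 at 34.81 and in F3 at 31.48 cycles. Its ΔCt was 18.22 in F2 and 14.52 in F3, and the lone vitrified well, at a ΔCt of 14.05, was within 0.47 of F3. Its opposite-arm assay miR-9# was undetermined in all pools. miR-137 was determined in V2 at 34.10, in F2 at 32.26 and in F3 at 32.85, so its only vitrified well was the latest of the 3, the reverse of miR-124 and miR-7a. The ΔCt of miR-137 was 17.00 in V2 and 15.78 ± 0.15 (SD, n = 2) in fresh pools. miR-219 was determined once, in F2 at 33.98. These 3 assays had too few wells for a comparison of the groups, and with 1 well at such a late Ct an undetermined neighbour does not show absence.

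The limma comparison of vitrified with fresh pools took the 335 assays that had 2 or more determined values in each group, and 4 of the 10 neural assays passed this filter. At an adjusted p-value under 0.05 (Benjamini-Hochberg), 0 of the 335 assays and 0 of the 4 neural assays were called, a background of 0%. At an unadjusted p-value under 0.05, 1 of 335 (0.299%) and 0 of the 4 passed. The wide spread that V1 and F1 give to other assays entered the moderated variances of these 4, which have no values in those pools. With V1 and F1 left out, the same log2 fold changes had standard errors of 0.56 for miR-7a, 0.63 for miR-124, 0.80 for miR-128a and 0.61 for miR-7b. The adjusted p-values of the 4 in that fit were 0.711, 0.729, 0.867 and 0.912 (limma), and none of the 326 assays reached 0.05. At an unadjusted p-value under 0.05, 12 of 326 assays (3.68%) were higher in vitrified pools, and miR-7a and miR-124 were among them. In the methods' t-test on ΔCt, 7 of 335 assays (2.09%) were higher in vitrified pools at an unadjusted p-value under 0.05, and miR-7a was the neural assay among them, but none passed after adjustment.

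Set against the assays of both cards, the 4 neural assays all had positive log2 fold changes in the pools numbered 2 and 3, with a median of 1.86, whereas the median over the 326 assays was −0.02 and 161 of them were positive. On card A alone the median was −0.09, and 90 of 196 were positive. miR-7a was the 15th highest, miR-124 the 16th, miR-128a the 28th and miR-7b the 59th of the 326. In −ΔCt, V2 and V3 both lay above F2 and F3 in all 4, a pattern shown by 18.1% of the 326 assays and by 16.8% of the 196 on card A. Both vitrified pools lay below both fresh pools in 10.7% of the 326. By pool number, miR-7a differed by 2.03 between V2 and F2 and by 2.27 between V3 and F3 on the log2 scale. For miR-124 the values were 2.61 and 1.51, for miR-128a 2.79 and 0.55, and for miR-7b 0.27 and 1.15. Both differences were positive in 19.9% of the card A assays.

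**Figure D3:**
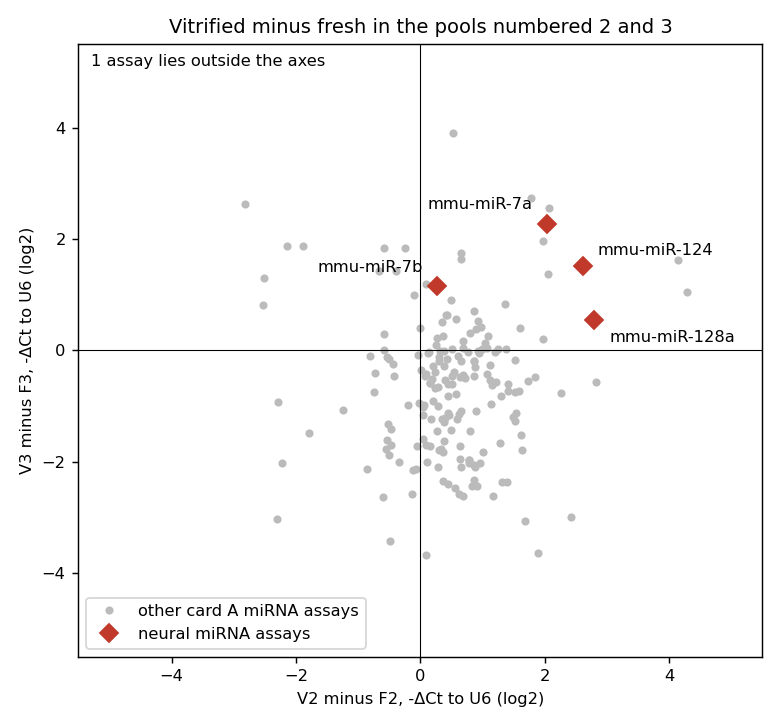
Difference in −ΔCt to U6 (log2) between V2 and F2 (horizontal) and between V3 and F3 (vertical) for the 196 card A miRNA assays determined in these pools, of which 1 lies outside the axes. The 4 neural assays, in red, are positive on both axes. miR-7a lies at 2.03 and 2.27 and miR-124 at 2.61 and 1.51. miR-128a, at 2.79 and 0.55, and miR-7b, at 0.27 and 1.15, lie nearer to an axis line.

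An embryonic marker had another order over these pools. miR-292-3p, an embryonic stem cell miRNA of the miR-290 cluster, had a raw Ct on card A of 25.47 in V2, 23.04 in V3, 23.07 in F2 and 24.90 in F3, with groups that overlapped. V3 and F2 were thus the early pools for this marker, and V2 and V3 for miR-124.

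The 3 other card A assays most like each of these 4 were found from the root mean square difference of −ΔCt, centred on each assay's mean, over V2, V3, F2 and F3. This was done over 4 pools because none of the neural assays was determined in all 6, a choice made after seeing the values. For miR-124 they were miR-494 at 0.21 cycles, miR-128a at 0.36 and miR-7a at 0.38, against a median of 1.18 over the 195 other assays. For miR-128a they were miR-124 at 0.36, miR-494 at 0.40 and rno-miR-381 at 0.54 (median 1.09). For miR-7a they were let-7a at 0.19, miR-199a-5p at 0.37 and miR-124 at 0.38 (median 1.25). For miR-7b they were miR-181c at 0.12, miR-18a at 0.13 and miR-451, the red cell miRNA, at 0.26 (median 0.82). miR-124 was thus among the 3 for both miR-128a and miR-7a, and none of the neural assays was among those for miR-7b. The centred values include the difference between vitrified and fresh pools given above. This likeness is therefore not separate evidence of a link among the neural assays. The study chose miR-199a-5p as upregulated on these same pools, so its likeness to miR-7a is not independent evidence.

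Another list of neural miRNAs held miR-129, miR-132, miR-134, miR-138, miR-212, miR-218, miR-338 and miR-485. Of its 12 assays, 11 were determined in at least 1 pool and 3 in all 6, namely miR-138, miR-212 and miR-218. miR-138, which acts in dendrites, was earlier than miR-124 in all of V2, V3, F2 and F3, with a raw Ct of 22.12 in V2, 22.64 in V3, 21.46 in F2 and 20.05 in F3, and of 26.25 in V1 and 30.39 in F1. Of the 8 tested, 3 were higher and 5 lower in vitrified pools, and 0 passed 0.05 before or after adjustment (limma). In the pools numbered 2 and 3 alone, 2 of the 8 were higher and 6 lower, with a median log2 fold change of −0.95. The activity-dependent neuronal pair miR-132 and miR-212 had log2 fold changes of −1.62 (standard error 0.88) and −1.68 (standard error 0.68) in those pools, opposite in sign to miR-124 and miR-7a. The study chose miR-212 on these pools, so its direction is not independent evidence.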

How the data were processed

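From 30 ng of RNA of each pool, the authors made and pre-amplified cDNA, ran it on cards A and B and deposited the raw Ct of each of 768 wells without normalization, in cycles. A deposited table of fold changes holds the authors' own comparison and was not used. Wells undetermined or at 40 cycles or later were excluded, ΔCt was taken against the mean of the 4 U6 wells of card and pool, and assays with at least 2 values per group were compared with limma 3.58.1 in R 4.3.3, adjusted over 335 assays. The fit was also run on simulated data with the same spread in every pool and larger changes than those found here. That run checks the calculation and does not show how well the fit finds changes in these pools. Single values were compared with 2-sided exact permutation tests (Python 3.11.15, scipy 1.17.1, numpy 2.4.6, pandas 2.3.3). The number of pools limits the precision, and nothing in the labels says whether pools of a group came from separate mice. Pools of a group shared 0 identical Ct values. Same-numbered pools deviated together from their group means over 122 assays (correlations 0.80, 0.78 and 0.67). V1 and F1 stood apart in their groups, which by itself puts the other pools on the same side of the means. These correlations therefore do not show pairing by number. The differences V2 − V3 and F2 − F3, which leave out V1 and F1, were opposed over 326 assays (correlation −0.35). Members, gene lists and tests were chosen with earlier results of these data known. The named assays are the members, their opposite arms, the other neural and marker lists and the assays of most similar pattern. Sequences are from RefSeq GRCm38.p6.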

Additional observations from a re-analysis of the deposited data

How the results depend on the processing

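In none of the 21 alternatives did an assay, neural or other, pass an adjusted p-value of 0.05 (a count of 0 throughout). The unadjusted count over all assays was 1 with 6 pools, and leaving out single pools gave 0 to 10. It was 16 of 326 with V1 and F1 left out together, among them 2 of the 4 neural assays. In the methods' t-test on ΔCt it was 9 of 335, with miR-7a alone of the neural assays. In the pools numbered 2 and 3 with a block that pairs V2 with F3 and V3 with F2, it was 37 of 326. Among these were 3 of the 4 neural assays, and that block was chosen after seeing the data. With the pool number as a replicate block, it was 4 of 335, with 0 of the 4 neural assays among them, and no call changed. The block with the global mean gave 24 of 335, among them 3 of the 4 neural assays, and pairing by pool number is not shown by these data.

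The log2 fold changes of miR-7a (1.33 to 2.49), miR-124 (1.24 to 2.56) and miR-128a (0.79 to 2.54) kept their direction under all 20 alternatives that gave a value. Many of these could not change it. Leaving out V1 or F1, adding a block to the U6 fit or changing the variance model gave the same values. Leaving out 1 of the other pools cannot reverse groups that do not overlap. Only another reference or a fixed Ct for undetermined wells could have done so. The log2 fold change of miR-7b was reversed, at −0.11, with the other controls determined in all 6 pools as the reference (snoRNA135 and snoRNA202 on card A). This reference moved the median over all assays from −0.05 to −0.78, and relative to that median miR-7b was at 0.67, miR-7a at 2.11, miR-124 at 2.02 and miR-128a at 1.63. The difference in the number of neural assays determined per pool was −1.0, and with single pools left out it ranged from −3.17 to 0.67, being 0.67 without V1 and 0.33 without F2. Assays determined in all 6 pools include 0 neural assays, so that setting gave no value for them. Where leaving out a pool left 1 value in a group, that value was assumed to vary like the others. Few wells limit what can be said of miR-9, miR-137 and miR-219.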
